A study of Homo sapiens with 24 samples.

Results

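The 44 genes described here are switched on in waves as cells divide, most of them by the E2F family of transcription factors or by the MuvB, B-MYB and FOXM1 factors that act later in the cycle. They were taken as a fixed list of symbols, looked up by Ensembl identifier. All 44 were found among the 37416 genes of the deposited tables, and all 44 were among the 21352 genes that passed the filter on low counts. The list holds 21 genes of the G1/S transition and DNA replication, called G1/S members here, and 23 genes of G2 and mitosis, called G2/M members.

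RNA was sequenced from MDAMB468, MDAMB231, BT549 and HCC1806, 4 established lines of human triple-negative breast cancer, to see what lowering ADAR1 does to their transcripts. ADAR1, the product of the gene ADAR, edits adenosine to inosine in double-stranded RNA. Each line was infected with lentivirus that carried either a control hairpin (shNT) or one that targets ADAR1 (shADAR1). Cells of both arms were exposed to virus for 24 h with 10 µg/ml protamine sulfate and then held in 2 µg/ml puromycin for 72 h, so the controls carry a vector and the selection too. There were 3 libraries labelled as biological replicates in each of 8 groups, 24 in all, each from 1 µg of total RNA after removal of ribosomal RNA. Nothing in the labels says whether the replicates were separate infections, whether more than 1 hairpin was used, or that cells were cloned, and p-values measure the spread between these libraries. Uninfected cells were not analysed here.

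The libraries held between 10370645 and 97218217 counted reads. ADAR stood between 276 and 527 CPM (read counts normalised to library size, here with totals scaled by TMM) in the 12 shNT libraries and between 54.6 and 173 CPM in the 12 shADAR1 libraries, so every library went with its label. The log2 fold change of ADAR was -2.19 in MDAMB231, -1.94 in BT549, -1.59 in HCC1806 and -1.43 in MDAMB468. The 5 epithelial markers summed to at most 1.51 CPM in BT549 and to at least 2949 CPM in HCC1806, 646 CPM in MDAMB231 and 3322 CPM in MDAMB468. In MDAMB231 shNT libraries, KRT8 (mean 467 CPM) and KRT18 (mean 223 CPM) made up most of that sum. There EPCAM averaged 8.95, CDH1 0.0739 and KRT5 0.00742 CPM. Under shNT the 4 mesenchymal markers summed to 4191 to 5767 CPM in BT549, 4606 to 5242 in MDAMB231 and 78.7 to 275 in HCC1806. Of the receptors absent in this tumour class by protein staining, PGR stayed under 1 CPM in every library, ESR1 read at most 21.1 CPM in the HCC1806 shNT libraries, and ERBB2 was between 69.8 and 115 CPM in the shNT libraries of all lines. The 4 immune markers summed to 86.6 to 99.5 CPM in the shNT libraries of MDAMB231, 45.5 to 53.4 in HCC1806, 17.6 to 23.0 in BT549 and 1.93 to 2.41 in MDAMB468. Most of that was CD68, a lysosomal protein gene of macrophages that reached 99.0 CPM in MDAMB231, whereas PTPRC and CD3E each stayed at or under 0.801 CPM in every library. In MDAMB468 the 4 mesenchymal markers summed to 48.9 to 68.0 CPM in the shNT arm and 86.2 to 107 CPM in the shADAR1 arm, and their part in the results for that line was not tested. Most of that sum was FN1, at a mean of 50.2 CPM under shNT and 80.9 CPM under shADAR1. VIM averaged 8.15 and 11.2 CPM there, CDH2 1.27 and 1.79, and ZEB1 0.257 and 0.342.

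As background, the retinoblastoma protein RB1 and its relatives hold E2F factors silent in G1 until cyclin D and cyclin E kinases phosphorylate them, and E2F then switches on the genes of DNA replication, among them E2F1 itself. The relatives of RB1, pocket proteins too, join the DREAM complex, which keeps G2/M genes off through a promoter element called CHR. This element often lies beside CCAAT boxes bound by NF-Y. In proliferating cells MuvB parts from the pocket proteins and binds B-MYB and then FOXM1, which switch the G2/M genes on. Triple-negative tumours are known for high levels of both waves.

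The stretches before the start of 5 members that the results turn on are shown for the letters of these elements. Each sequence holds the 120 bases before the RefSeq start on the gene's own strand (GRCh38.p14), with matched letters in capitals. The windows are chr20:33686386-33686505 on the minus strand for E2F1, chr3:48188418-48188537 (minus) for CDC25A, chr1:23531234-23531353 (minus) for E2F2, chr10:128126424-128126543 (minus) for MKI67 and chr10:92593010-92593129 (plus) for KIF11.
E2F1: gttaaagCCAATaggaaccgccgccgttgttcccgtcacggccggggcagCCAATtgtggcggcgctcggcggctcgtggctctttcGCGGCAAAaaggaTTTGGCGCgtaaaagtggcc
CDC25A: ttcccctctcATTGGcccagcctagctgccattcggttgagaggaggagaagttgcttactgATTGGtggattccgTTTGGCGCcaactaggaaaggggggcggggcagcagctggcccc
E2F2: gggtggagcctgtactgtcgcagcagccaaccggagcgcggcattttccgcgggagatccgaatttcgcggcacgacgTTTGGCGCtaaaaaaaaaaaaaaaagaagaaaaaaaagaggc
MKI67: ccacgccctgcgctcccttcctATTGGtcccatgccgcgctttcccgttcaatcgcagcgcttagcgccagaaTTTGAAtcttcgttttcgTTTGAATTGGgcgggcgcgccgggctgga
KIF11: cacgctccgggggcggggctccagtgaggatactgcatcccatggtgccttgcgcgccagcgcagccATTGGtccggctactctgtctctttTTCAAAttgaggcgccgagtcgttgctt
E2F1, the activator that drives its own promoter, carried E2F letters at 33 and 20 bases before the start and CCAAT at 113 and 70. In CDC25A the E2F letters lay 44 bases before the start and in E2F2 42 bases before it. The G2/M promoters of MKI67 (47 and 29 bases before the start) and KIF11 (28 bases, on the other strand) carried the CHR letters instead.

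Promoters of 34 members were in the RefSeq table, 17 of each class; E2F8, UBE2C, TTK, MCM4, AURKA, CCNE2, MCM5, BIRC5, TPX2 and FOXM1 were not searched. They were read from 250 bases before to 50 bases after the start, on both strands. The E2F letters searched were TTTGGCGC, TTTCGCGC, TTTCCCGC and TTTGCCGC. They were in 12 of 17 G1/S promoters (70.6%), in 1 of 17 G2/M promoters (5.88%, the gene being CDK1) and in 3.99% of the 27305 genes of the table. The CHR letters searched were TTTGAA and TTCGAA, present in 12 of 17 G2/M promoters (70.6%), in 2 of 17 G1/S promoters (11.8%, MCM6 and RRM1) and in 19.5% of all. CCAAT was in 14 of 17 G2/M promoters (82.4%), 11 of 17 G1/S promoters (64.7%) and 39.7% of all, and CHR with CCAAT in 10 of 17 (58.8%), 2 of 17 (11.8%) and 7.85%. Among the 13771 tested genes with a promoter entry the shares were 5.79% (E2F), 16.5% (CHR), 42.3% (CCAAT) and 6.83% (CHR with CCAAT). Members are known as targets of E2F or of the DREAM complex, so these matches describe the list and are no test of it. In MKI67 the CHR match nearest the start overlaps a CCAAT match on the other strand. In the shorter window from 100 bases before the start, none of the 17 G1/S promoters held CHR letters and 11 of 17 G2/M promoters still did. CCNE1, RRM1, RRM2, E2F7 and MYBL2 were the G1/S members with a promoter entry and none of these E2F letters.

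Baseline levels came first: how the 4 lines differ in these genes under the control hairpin. In the shNT libraries the mitotic genes ran higher in BT549 and MDAMB231 than in HCC1806 and MDAMB468, whereas the G1/S genes followed no common order and a few regulators, above all cyclin E1, E2F2 and E2F7, differed between lines by 7.94 to 10.2 times. The joint test for any difference between the 4 control groups (edgeR's quasi-likelihood test, Benjamini-Hochberg adjusted over all genes) called 42 of 44 members, 20 of 21 G1/S and 22 of 23 G2/M, where 85.9% of all genes tested were called. MCM5 (adjusted p = 0.320) and the survivin gene BIRC5 (adjusted p = 0.112) did not pass. The highest line exceeded the lowest by a median of 2.61 times over the G1/S members (range 1.13 to 10.2) and 2.31 times over the G2/M members (range 1.22 to 3.87). Replicates varied far less, with a median SD of 0.132 (G1/S) and 0.168 (G2/M) on the log2 scale within control groups, against 0.603 and 0.532 between line means. In bulk RNA, fewer cells in a phase and less RNA per cell in that phase cannot be told apart. The lines are 1 culture source each, so these differences describe the lines.

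**Figure D1:**
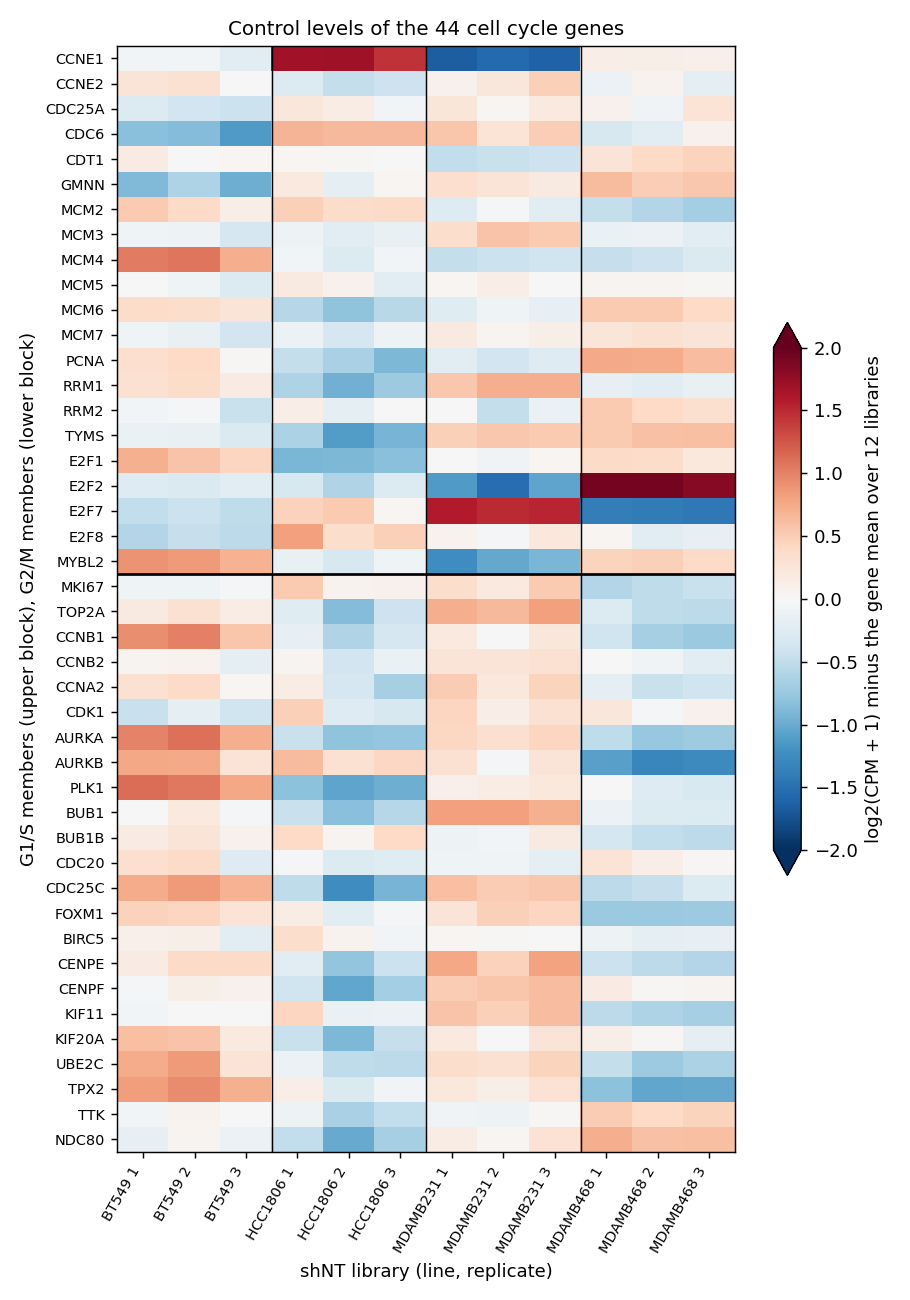
Control levels of all 44 members. Each row is a gene and each column 1 of the 12 shNT libraries; colour gives log2(CPM + 1) minus the gene's mean over the 12 libraries, red higher and blue lower, with G1/S members above the black line. CCNE1 is reddest in HCC1806, E2F2 in MDAMB468 and E2F7 in MDAMB231, and most mitotic rows are red in BT549 and MDAMB231.

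Among the G1/S regulators, CCNE1 encodes cyclin E1, the partner of CDK2 at S-phase entry. CCNE1 read 93.7, 94.7 and 79.5 CPM in HCC1806, 31.6, 31.2 and 30.7 CPM in MDAMB468, 27.7, 27.4 and 24.5 CPM in BT549, and 8.49, 9.10 and 8.64 CPM in MDAMB231. No neighbouring lines overlapped in that order, and HCC1806 exceeded MDAMB231 by a log2 difference of 3.35 (SE 0.14, adjusted p = 2.4e-15 in edgeR's test). Its paralog CCNE2 ran in another order, with 17.4, 19.2 and 23.1 CPM in MDAMB231, 19.7, 20.4 and 16.4 in BT549, 15.0, 17.2 and 14.3 in MDAMB468 and 13.3, 11.4 and 11.97 in HCC1806, where only the HCC1806 libraries lay clear of their neighbour. CDC25A, the phosphatase that activates CDK2, was lowest in BT549, at 30.1, 28.0 and 26.8 CPM. The other 3 lines lay between 34.9 and 44.2 CPM and overlapped.

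The licensing genes load the MCM helicase on origins. CDC6, the loader, read 133, 131 and 131 CPM in HCC1806, 123, 101 and 116 in MDAMB231, 66.2, 70.6 and 87.6 in MDAMB468 and 45.9, 45.0 and 37.1 in BT549, with no overlap between neighbours. Its partner CDT1 was highest in MDAMB468 (142, 157 and 163 CPM) and lowest in MDAMB231 (84.3, 87.7 and 89.2 CPM), with BT549 and HCC1806 overlapping between 119 and 134 CPM. GMNN, the inhibitor of CDT1, was lowest in BT549 at 23.0, 27.7 and 21.5 CPM and highest in MDAMB468 at 67.1, 61.2 and 62.9 CPM. In BT549, therefore, both CDC6 and GMNN stood below the other lines while CDT1 did not.

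The helicase subunits did not share an order across lines. MCM2 was 196, 178 and 147 CPM in BT549, 188, 175 and 176 in HCC1806, 114, 132 and 118 in MDAMB231 and 96.9, 89.9 and 84.4 in MDAMB468, and the first pair overlapped. MCM4 reached 551, 561 and 443 CPM in BT549 against 193 to 259 CPM in the other 9 libraries, the widest gap of the subunits. MCM3 was highest in MDAMB231 (266, 306 and 299 CPM), where the other lines lay between 164 and 195 CPM and did not separate. MCM6 ran in the order MDAMB468 (111, 111 and 102 CPM), BT549 (99.7, 99.3 and 92.8), MDAMB231 (65.5, 72.6 and 69.0) and HCC1806 (51.8, 43.8 and 52.4), each clear of the next. MCM7 spanned 197 to 315 CPM and MCM5 101 to 139 CPM, so BT549 held the most MCM4 but not the most of any other subunit of the ring.

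Among the DNA synthesis members, PCNA, RRM1 and TYMS were lowest in HCC1806. PCNA, the polymerase clamp, read 234, 231 and 212 CPM in MDAMB468, 175, 183 and 141 in BT549, 119, 105 and 115 in MDAMB231 and 98.5, 87.5 and 73.1 in HCC1806. RRM1, the large ribonucleotide reductase subunit, was 66.2, 51.8 and 61.3 CPM in HCC1806 and 148, 169.8 and 169 CPM in MDAMB231, with BT549 (114 to 132) above MDAMB468 (88.0 to 91.4) between them. Thymidylate synthase, TYMS, was 30.5, 21.5 and 24.7 CPM in HCC1806 and between 66.8 and 72.8 CPM in MDAMB231 and MDAMB468, which overlapped. RRM2, the regulated small subunit, did not follow: its HCC1806 libraries (303, 239 and 273 CPM) overlapped those of BT549 (264, 268 and 202) and MDAMB231 (272, 197 and 251), below MDAMB468 (394, 363 and 343).

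The E2F factors themselves differed in level and in order. E2F1, the activator, read 120.1, 109 and 99.1 CPM in BT549, 96.0, 94.5 and 85.1 in MDAMB468, 72.9, 69.4 and 75.5 in MDAMB231 and 38.5, 38.6 and 40.7 in HCC1806, each clear of the next. E2F2, a second activator, stood at 138, 139 and 129.8 CPM in MDAMB468 against 29.9, 29.3 and 31.0 in BT549, 28.6, 23.3 and 29.4 in HCC1806 and 15.8, 11.8 and 16.8 in MDAMB231. For E2F2, MDAMB468 exceeded MDAMB231 by a log2 difference of 3.21, written in the fit as -3.21 for MDAMB231 minus MDAMB468 (SE 0.17, adjusted p = 1.0e-13 in edgeR's test). E2F7, an E2F without a DP partner that represses E2F targets, ran the other way, at 225, 212 and 215 CPM in MDAMB231, 103, 108 and 76.7 in HCC1806, 52.5, 55.1 and 51.97 in BT549 and 27.8, 27.4 and 26.8 in MDAMB468. Its log2 difference of MDAMB231 over MDAMB468 was 2.99 (SE 0.13, adjusted p = 7.5e-15). The related repressor E2F8 was highest in HCC1806 (58.2, 41.4 and 45.3 CPM) and lowest in BT549 (21.3, 23.3 and 22.4 CPM), with MDAMB231 and MDAMB468 overlapping between 27.9 and 37.5 CPM. MYBL2, which encodes B-MYB, read 376, 364 and 326 CPM in BT549, 273, 279 and 262 in MDAMB468, 181, 159.5 and 189 in HCC1806 and 83.8, 97.6 and 105 in MDAMB231. BT549 exceeded MDAMB231 in MYBL2 by a log2 difference of 1.89 (SE 0.09).

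**Figure D2:**
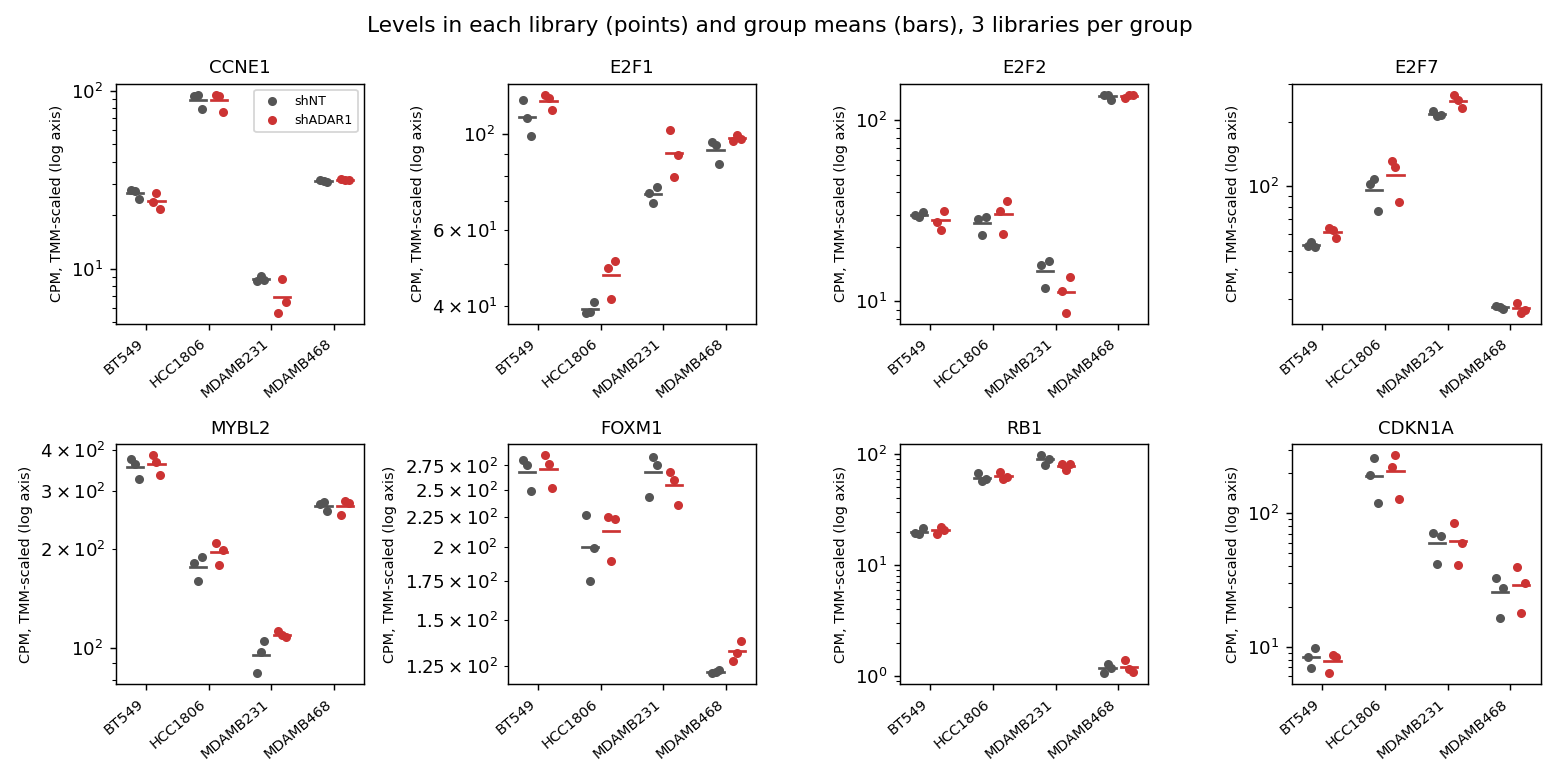
CPM on log axes in each library for 6 members and the regulators RB1 and CDKN1A. Grey points are shNT and red points shADAR1 libraries, 3 a group, and bars are group means. CCNE1 ran from 8.49 to 94.7 CPM between the shNT libraries of different lines, and its 2 arms overlapped in every line.

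The pocket protein and inhibitor genes upstream of these factors also differed between lines. RB1 was 97.3, 80.3 and 91.0 CPM in MDAMB231, 66.9, 56.5 and 59.1 in HCC1806, 19.4, 19.0 and 21.6 in BT549 and 1.06, 1.29 and 1.18 in MDAMB468. MDAMB231 exceeded MDAMB468 in RB1 by a log2 difference of 6.23 (SE 0.14, adjusted p = 4.1e-20 in edgeR's test), and MDAMB468 and BT549 are known as RB1-defective lines. MDAMB468 was also the line with the most E2F2, but E2F2 in BT549 (mean 30.1 CPM) overlapped that in HCC1806 (27.1 CPM). A link between RB1 and E2F2 was not tested. CDKN2A, which encodes p16 and p14ARF, stood at 247, 253 and 259 CPM in BT549 and 75.7, 83.8 and 77.0 in MDAMB468, and had 0 counts in all 6 shNT libraries of HCC1806 and MDAMB231. A count of 0 in those libraries allows at most 0.289 CPM of the unscaled total in the shallowest (3 counts). CDKN1A, the p21 gene, ran from 8.41, 6.89 and 9.82 CPM in BT549 through 32.9, 16.5 and 27.5 in MDAMB468 and 71.0, 41.9 and 67.6 in MDAMB231 to 194, 261 and 119 in HCC1806. CCND1, cyclin D1, was 772, 802 and 758 CPM in MDAMB231, 592, 519.8 and 435 in HCC1806, 223, 229.7 and 264 in MDAMB468 and 101, 111 and 77.2 in BT549. The lines with the least RB1 RNA, MDAMB468 and BT549, had CDKN2A and the least CCND1.

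BT549 and MDAMB231 shared the top place for most G2/M members. BT549 was the highest line for 10 of the 23 and MDAMB231 for 9, whereas HCC1806 was the lowest for 11 and MDAMB468 for 11. For the 21 G1/S members the highest line was MDAMB468 for 8, MDAMB231 for 6, HCC1806 for 4 and BT549 for 3. The mean of log2(CPM + 0.25) over the G2/M members under shNT was 7.43 in BT549, 7.43 in MDAMB231, 6.81 in HCC1806 and 6.79 in MDAMB468, and over the G1/S members 6.38, 6.36, 6.33 and 6.57.

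Among the mitotic kinases, PLK1, which drives mitotic entry, read 348, 333 and 271 CPM in BT549, 171, 177 and 184 in MDAMB231, 159, 133 and 128 in MDAMB468 and 89.4, 75.7 and 80.6 in HCC1806, each clear of the next. BT549 exceeded HCC1806 in PLK1 by a log2 difference of 1.95 (SE 0.12, adjusted p = 7.0e-13 in edgeR's test). AURKA, the centrosome and spindle kinase, was 254, 275 and 213 CPM in BT549, 171, 160.0 and 172 in MDAMB231, and overlapped in MDAMB468 (89.3, 75.1 and 77.2) and HCC1806 (93.6, 72.7 and 74.6). Its activator TPX2 stood at 721, 782 and 666 CPM in BT549, with 468, 439 and 494 in MDAMB231, 445, 331 and 392 in HCC1806 and 228, 196 and 198 in MDAMB468. AURKB, the chromosome passenger kinase, was low in MDAMB468 alone, at 42.7, 36.9 and 37.4 CPM against 89.4 to 159 CPM in the 9 other libraries.

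Cyclin B1, FOXM1 and the CDC25C phosphatase are further regulators of mitotic entry. CCNB1, cyclin B1, read 329, 347 and 253 CPM in BT549, 197, 174 and 202 in MDAMB231, 154, 113 and 136 in HCC1806 and 131, 108 and 103 in MDAMB468, the last pair overlapping. FOXM1, the activator of G2/M genes, was 281, 276 and 248 CPM in BT549 and 243, 284 and 276 in MDAMB231, which overlapped, then 226, 175 and 199 in HCC1806 and 122, 122 and 123 in MDAMB468. BT549 exceeded MDAMB468 in FOXM1 by a log2 difference of 1.13 (SE 0.10, adjusted p = 3.7e-10). CDC25C, the phosphatase that activates CDK1, ran from 28.3, 30.8 and 27.5 CPM in BT549 and 25.6, 24.1 and 24.6 in MDAMB231 to 11.2, 11.8 and 13.5 in MDAMB468 and 11.3, 6.47 and 8.23 in HCC1806. CDK1 itself spanned 64.0 to 121 CPM with every neighbour overlapping, as did CCNA2, cyclin A2, from 55.6 to 126 CPM.

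Kinetochore, checkpoint and motor genes did not share 1 order of lines. BUB1, a checkpoint kinase, read 225, 224 and 207 CPM in MDAMB231, 127, 145 and 122 in BT549, 117, 105 and 104 in MDAMB468 and 93.1, 70.7 and 84.6 in HCC1806. CENPE, CENPF, TOP2A and KIF11 were also highest in MDAMB231, at 180.0 to 227, 753 to 811, 666 to 752 and 176 to 195 CPM, and for each of them every MDAMB231 library stood above every other library. MKI67, the gene of the Ki-67 antigen, was 1480.2, 1319 and 1655 CPM in MDAMB231, 1665, 1219 and 1231 in HCC1806, 1090.3, 1087 and 1129 in BT549 and 766, 815 and 845 in MDAMB468, so the HCC1806 value was not low here. NDC80 and TTK, which attach kinetochores to the spindle and monitor that attachment, were highest in MDAMB468, at 98.6, 89.1 and 90.2 CPM and 87.3, 80.8 and 83.1 CPM. The anaphase activator CDC20 and its partner enzyme UBE2C differed in reach, CDC20 spanning 202 to 321 CPM over the 12 libraries and UBE2C 73.2 to 220.4 CPM. KIF20A, a cytokinesis kinesin, was lowest in HCC1806 (116, 84.1 and 114 CPM). In the other lines only neighbours in the order BT549, MDAMB231 and MDAMB468 overlapped, and BT549 lay clear of MDAMB468. BUB1B spanned 57.0 to 109 CPM, CCNB2 42.3 to 68.9 CPM and BIRC5 101 to 152 CPM.

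Pairwise tests between control groups gave these orders in counts. BT549 against HCC1806 called 31 of 44 members (63.5% of all genes), with 16 G2/M members higher in BT549 and 1 lower (29.5% and 33.9% of all genes), and 8 G1/S members higher and 6 lower. BT549 against MDAMB468 called 35 (61% of all genes), with 16 G2/M members higher and 3 lower (30.5% and 30.5%). HCC1806 against MDAMB231 called 34 (59%), with 1 G2/M member, BUB1B, higher and 17 lower (31.4% and 27.6%). MDAMB231 against MDAMB468 called 33 (61.8%), with 17 G2/M members higher and 2 lower (31.2% and 30.6%). Within each side the classes split more evenly. BT549 against MDAMB231 called 31 (56.5%), with 5 G2/M members higher and 8 lower (28.4% and 28.1%), and HCC1806 against MDAMB468 called 33 (62.9%), with 7 higher and 8 lower (33.7% and 29.2%). The median log2 difference of the G2/M members was 0.65, 0.60, -0.51, 0.75, 0.00 and -0.01 in those 6 comparisons in that order. These comparisons share control groups and are given side by side only.

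Levels of different genes can be compared per kilobase of transcript model. On the scale of CPM per kb, averaged over the control groups of the 4 lines, TPX2 (124), CDC20 (122), UBE2C (101), PCNA (100.5) and MKI67 (93.1) were the most abundant members. CCNE2 (3.78), CDC25C (6.11), E2F8 (8.16), CDC25A (9.0) and E2F2 (9.51) were the least abundant. The CDC25 phosphatases, E2F2 and E2F8 were thus at the low end of this scale.

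Knockdown of ADAR1 was then compared with the control hairpin within each line. No member passed the threshold in any line by edgeR's quasi-likelihood test. Over the 4 lines together 2 did, the phosphatase gene CDC25A, which fell, and E2F1, which rose. The same test called 2.01% of all genes in MDAMB231, 0.473% in BT549, 0.0468% in HCC1806 and 0.0375% in MDAMB468. With shares that low, a count of 0 among 44 genes does not set the members apart from other genes. Before adjustment, p lay under 0.05 for 7 members in MDAMB231 (11.7% of all genes), 4 in HCC1806 (4.35%), 2 in MDAMB468 (3.76%) and 1 in BT549 (6.42%). DESeq2 called 1 member in MDAMB468, CDC25A (log2 fold change -0.53, adjusted p = 0.036), beside 0.332% of the genes it tested there, and 0 in the other lines. Leaving out the MDAMB231 shADAR1 replicate 2 library raised the count there to 3, with E2F1 (0.40, adjusted p = 0.031) and RRM2 (0.59, adjusted p = 0.042) up and CCNE1 (-0.52, adjusted p = 0.032) down. Same-numbered libraries of the 2 arms deviated together in all 4 lines. A model with blocking terms for the replicate number, fitted separately within each line, is therefore given beside each result it changes. With the block, 10 members passed in MDAMB231 (11.4% of all genes), 3 in HCC1806 (2.1%), 2 in BT549 (5.14%) and 2 in MDAMB468 (1.66%), and leaving out 1 same-numbered pair left 0 or 1 in BT549, HCC1806 and MDAMB468 and 4 to 9 in MDAMB231.

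**Figure D3:**
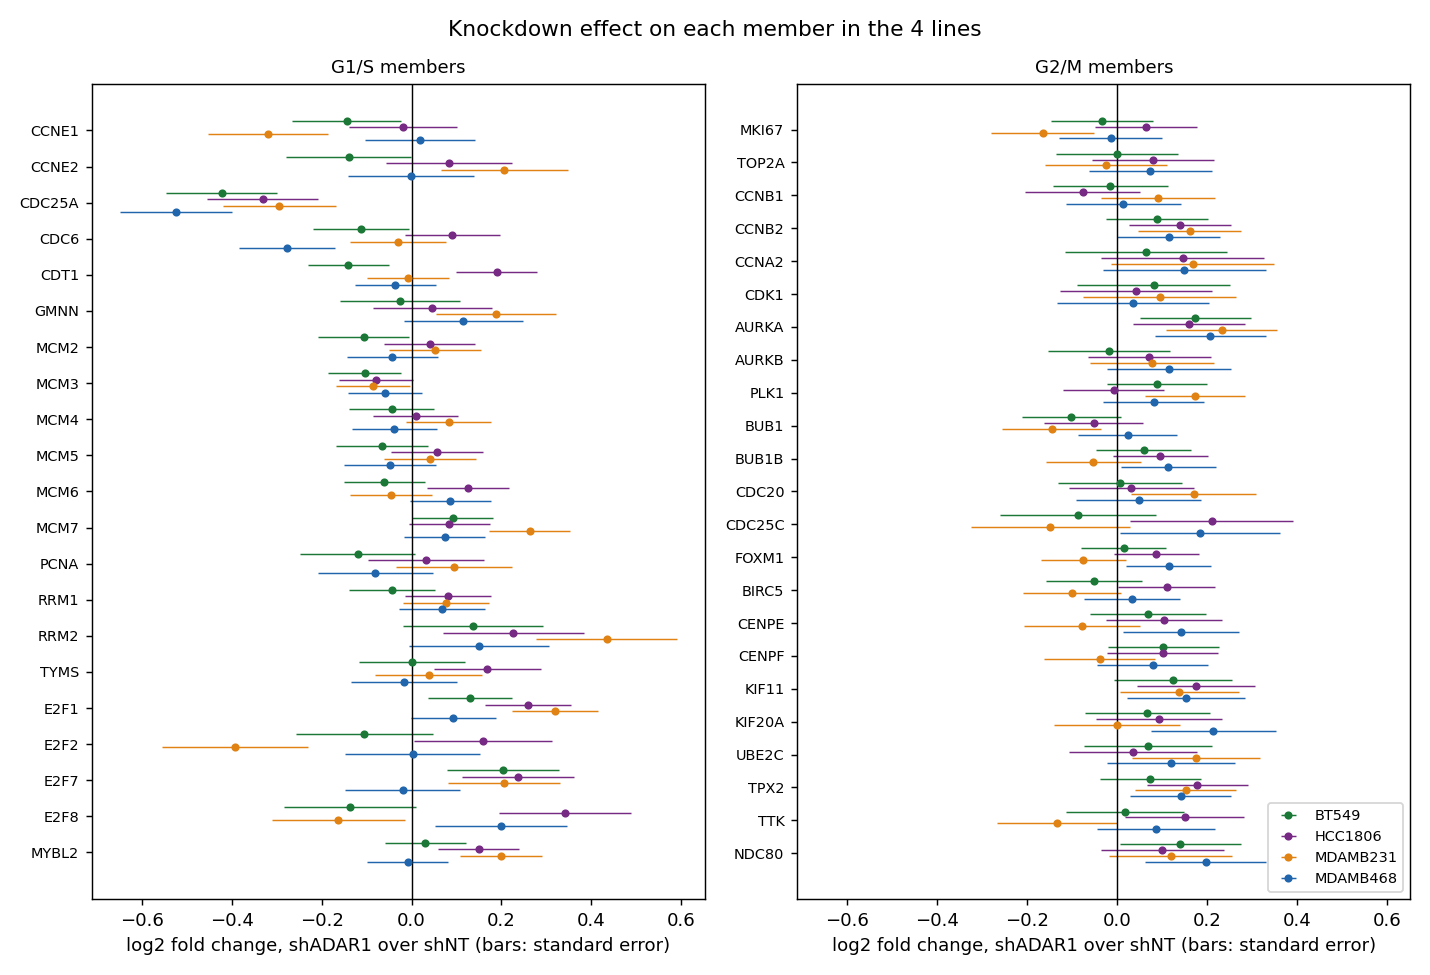
Log2 fold change of each member, shADAR1 over shNT, in the 4 lines (points, coloured by line) with its standard error (bars), from the fit without the replicate block. G1/S members are on the left and G2/M members on the right. CDC25A lies left of 0 in every line, from -0.29 to -0.52, and most G2/M points lie within 0.2 of 0.

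CDC25A (ENSG00000164045, chr3:48157146-48188402, minus strand, in the files' coordinates, which equal GENCODE release 29 on GRCh38), the phosphatase that removes inhibitory phosphates from CDK2 and CDK1, was lower under shADAR1 in every line. Its levels in shNT replicates 1, 2 and 3 were 30.1, 28.0 and 26.8 CPM in BT549, 43.1, 40.6 and 35.1 in HCC1806, 43.2, 37.6 and 41.9 in MDAMB231 and 39.0, 34.9 and 44.2 in MDAMB468. Under shADAR1 they were 20.6, 21.8 and 20.9 CPM in BT549, 35.3, 32.7 and 26.5 in HCC1806, 38.3, 32.3 and 29.5 in MDAMB231 and 25.8, 31.1 and 25.1 in MDAMB468. The arms did not overlap in BT549 and MDAMB468, overlapped in HCC1806 and MDAMB231, and the shADAR1 library was the lower in all 12 same-numbered pairs. The log2 fold changes were -0.42 (SE 0.12) in BT549, -0.33 (SE 0.12) in HCC1806, -0.29 (SE 0.13) in MDAMB231 and -0.52 (SE 0.12) in MDAMB468, none past the threshold alone (adjusted p = 0.20, 0.92, 0.33 and 0.27). The mean over the 4 lines fell by 0.39 (SE 0.06, adjusted p = 0.00031), and that mean stayed between -0.42 and -0.36 and past the threshold when any 1 of the 24 libraries was left out. With the replicate block CDC25A also fell within BT549 (adjusted p = 0.0086), MDAMB231 (adjusted p = 0.042) and MDAMB468 (adjusted p = 0.0049).

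E2F1 (ENSG00000101412, chr20:33675487-33686404, minus strand) was higher under shADAR1 in every line. From shNT to shADAR1, replicates 1, 2 and 3 went from 120.1, 109 and 99.1 to 124, 122 and 114 CPM in BT549, and from 38.5, 38.6 and 40.7 to 49.0, 41.4 and 50.7 CPM in HCC1806. In MDAMB231 E2F1 went from 72.9, 69.4 and 75.5 to 102, 79.8 and 89.6 CPM, and in MDAMB468 from 96.0, 94.5 and 85.1 to 96.4, 99.9 and 97.4 CPM. The arms did not overlap in HCC1806, MDAMB231 and MDAMB468 and overlapped in BT549, and E2F1 was higher in 12 of 12 pairs. Its log2 fold change was 0.13, 0.26, 0.32 and 0.09 in BT549, HCC1806, MDAMB231 and MDAMB468, and the mean over lines rose by 0.20 (SE 0.05, adjusted p = 0.017), a call kept when any 1 of the 24 libraries was left out. With the block E2F1 also rose in HCC1806 (adjusted p = 0.048) and MDAMB231 (adjusted p = 0.0030).

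The count of 2 of 44 members for the mean over the 4 lines stood beside 2.96% of all genes. It was 4 without the HCC1806 shNT replicate 1 library, AURKA (0.23, adjusted p = 0.041) and KIF11 (0.20, adjusted p = 0.045) being added. With the replicate block 13 of 44 members passed, 11 up and 2 down, beside 13.2% of all genes (7.25% up and 5.96% down). The 5 G1/S members that rose with the block were RRM2 (0.23, adjusted p = 8.4e-06), E2F1 (0.20), E2F7 (0.15, adjusted p = 0.00065), MCM7 (0.13, adjusted p = 0.00088) and MYBL2 (0.09, adjusted p = 0.047), and the 2 that fell were CDC25A and MCM3 (-0.08, adjusted p = 0.032). The 6 G2/M members that rose with it were AURKA (0.19, adjusted p = 4.4e-05), KIF11 (0.15, adjusted p = 0.00057), TPX2 (0.14, adjusted p = 0.0011), CCNA2 (0.13, adjusted p = 0.0033), NDC80 (0.14, adjusted p = 0.0044) and CCNB2 (0.13, adjusted p = 0.022). No G2/M member fell. All of these but CDC25A are changes of under 0.25 on the log2 scale.

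**Figure D4:**
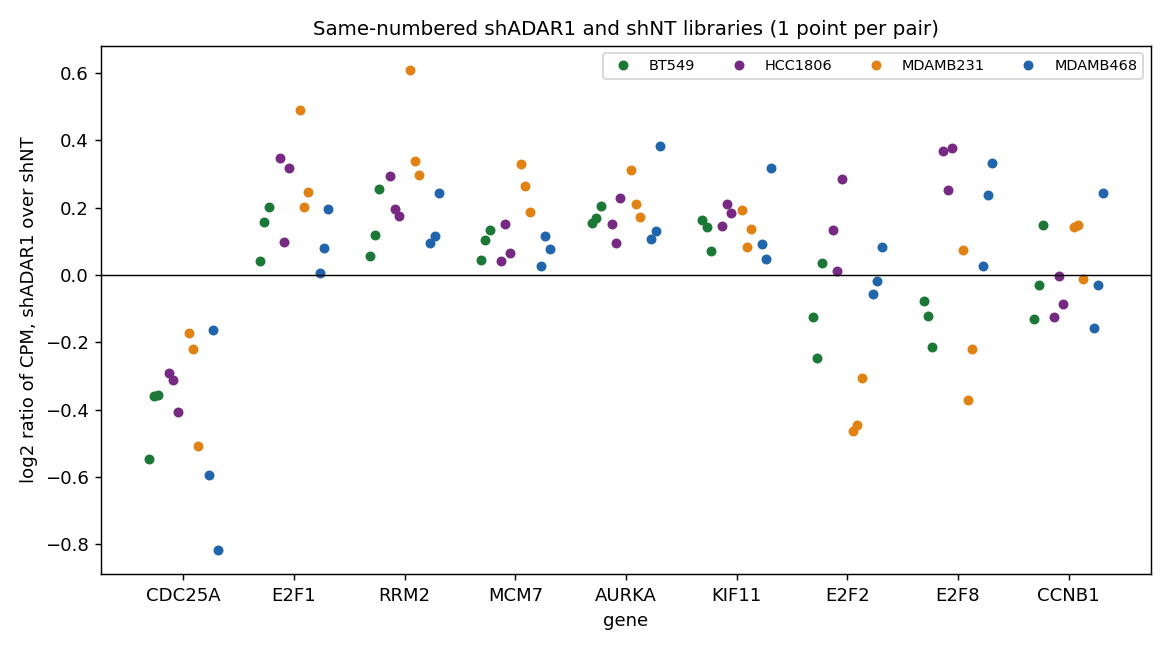
Log2 ratio of CPM in each shADAR1 library over the shNT library of the same number, for 9 members, 3 points a line. All 12 points lie below 0 for CDC25A and above 0 for E2F1, RRM2, MCM7, AURKA and KIF11, whereas E2F2, E2F8 and the cyclin gene CCNB1 have points on both sides.

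The direction was also counted over same-numbered pairs. CDC25A was lower in 12 of 12 pairs, beside 1.67% of all genes. RRM2, MCM7 and E2F1 of the G1/S class and CCNA2, AURKA, KIF11, TPX2 and NDC80 of the G2/M class were higher in 12 of 12, beside 1.33% of all genes. Arms that did not overlap were also counted in each line. On the high side these were 3 members in BT549 (8.24% of all genes), 3 in HCC1806 (4.38%), 6 in MDAMB231 (7.18%) and 3 in MDAMB468 (6.69%). On the low side they were 2 in MDAMB231 (7.01%), 2 in MDAMB468 (4.29%), 1 in BT549 (6.43%) and 0 in HCC1806 (3.2%). MDAMB231 held the most of these members on the high side. Replicates spread as widely as the arms for several of the genes named. KIF11, a spindle motor, went from 122, 128 and 127 to 136, 141 and 133 CPM in BT549 without overlap, but from 171, 115 and 116 to 189, 133 and 132 CPM in HCC1806, where replicate 1 of each arm lay above all others. AURKA went from 254, 275 and 213 to 283, 309 and 245 CPM in BT549, from 93.6, 72.7 and 74.6 to 104, 77.6 and 87.3 in HCC1806, from 171, 160.0 and 172 to 212, 185 and 194 in MDAMB231 and from 89.3, 75.1 and 77.2 to 96.1, 82.2 and 101 in MDAMB468. Only in MDAMB231 did the arms of AURKA not overlap.

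BT549 was the line with the fewest members near the threshold. After CDC25A, the smallest p-values belonged to E2F7 (log2 fold change 0.20, adjusted p = 0.94) and CDT1 (-0.14, adjusted p = 0.96). E2F7 went from 52.5, 55.1 and 51.97 CPM to 63.7, 62.8 and 57.4 CPM with no overlap, and rose with the replicate block (adjusted p = 0.035). CDT1 went from 134, 119 and 122 CPM to 123, 103 and 114 CPM and overlapped. Between the classes, 15 of 21 G1/S members were lower (median log2 fold change -0.07) and 16 of 23 G2/M members higher (median 0.06), the median over all genes being 0.01.

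HCC1806 had a positive estimate for most members of both classes. There 18 of 21 G1/S members were higher (median 0.08) and 20 of 23 G2/M members (median 0.10), the median over all genes being 0.00. E2F8 went from 58.2, 41.4 and 45.3 CPM to 75.2, 49.3 and 58.8 CPM, a log2 fold change of 0.34 (adjusted p = 1.00), and rose with the replicate block (0.33, adjusted p = 0.021). E2F7 went from 103, 108 and 76.7 CPM to 131, 123 and 84.3 CPM and rose with the block (0.23, adjusted p = 0.032). The shNT replicate 1 library of HCC1806 stood apart in the mitotic genes. Its G2/M mean was 7.06 on the log2(CPM + 0.25) scale against 6.60 and 6.76 in the other 2, a range of 0.465 beside a mean arm difference of 0.090, and the same-numbered shADAR1 library was the highest of its arm at 7.10. MKI67 showed it in single values, at 1665, 1219 and 1231 CPM under shNT and 1623, 1316 and 1365 CPM under shADAR1.

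In MDAMB231 the 10 members that passed in the fit with the block were 6 up (5.09% of all genes) and 4 down (6.33%). RRM2 went from 272, 197 and 251 CPM to 415, 249 and 309 CPM, a log2 fold change of 0.43 (SE 0.16, adjusted p = 0.21) that overlapped between arms, and rose with the block (0.41, adjusted p = 6.0e-05). MCM7 went from 289, 267 and 277 CPM to 363, 320.2 and 315 CPM with no overlap (0.26, adjusted p = 0.18, and 0.0010 with the block). MYBL2 went from 83.8, 97.6 and 105 CPM to 113, 109.5 and 108 CPM with no overlap (0.20, adjusted p = 0.39, and 0.042 with the block). E2F7 (225, 212 and 215 CPM to 267, 252 and 232 CPM) did not overlap either, and AURKA, E2F1 and E2F7 completed the 6 that rose with the block.

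The 4 that fell with the block in MDAMB231 were E2F2, CCNE1, CDC25A and MKI67. E2F2 went from 15.8, 11.8 and 16.8 CPM to 11.4, 8.65 and 13.5 CPM, a log2 fold change of -0.39 (SE 0.16, adjusted p = 0.31, and 0.0024 with the block). CCNE1 went from 8.49, 9.10 and 8.64 CPM to 5.65, 8.71 and 6.49 CPM (-0.32, adjusted p = 0.32, and 0.043 with the block). MKI67 went from 1480.2, 1319 and 1655 CPM to 1345, 1179 and 1450.4 CPM (-0.16, and adjusted p = 0.033 with the block). The arms overlapped for each of these 3. BIRC5 (121, 120.2 and 119 CPM to 112, 114 and 110.3 CPM) and TTK (58.1, 56.8 and 62.0 CPM to 54.7, 53.3 and 53.4 CPM) were the 2 members whose arms did not overlap on the low side, beside 7.01% of all genes. Here 13 of 21 G1/S members (median 0.05) and 13 of 23 G2/M members (median 0.08) were higher, the median over all genes being 0.

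In MDAMB468 most mitotic estimates lay above 0. Of the G2/M members 22 of 23 were higher, with a median log2 fold change of 0.11, whereas 12 of 21 G1/S members were lower, with a median of -0.01, the median over all genes being 0.01. The G2/M class mean was higher by 0.029, 0.048 and 0.239 in pairs 1, 2 and 3, so pair 3 carried most of the difference. In this line, as in the other lines, all members were read in the same libraries, so their signs are not separate results. None of the 23 passed the threshold with or without the block, and FOXM1, the activator of this class, went from 122, 122 and 123 CPM to 128, 132 and 138 CPM with no overlap (0.12). CDC6, of the G1/S class, went from 66.2, 70.6 and 87.6 CPM to 59.8, 65.0 and 60.5 CPM, a log2 fold change of -0.28 (SE 0.11, adjusted p = 1.00), and fell with the block (-0.27, adjusted p = 0.044). CCNE1, at 31.6, 31.2 and 30.7 CPM against 31.7, 31.6 and 31.5 CPM, and E2F2, at 138, 139 and 129.8 CPM against 133, 137 and 137 CPM, had log2 fold changes of 0.02 and 0.00. In this line the mesenchymal marker sum given above, most of it FN1, also differed between arms.

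**Figure D5:**
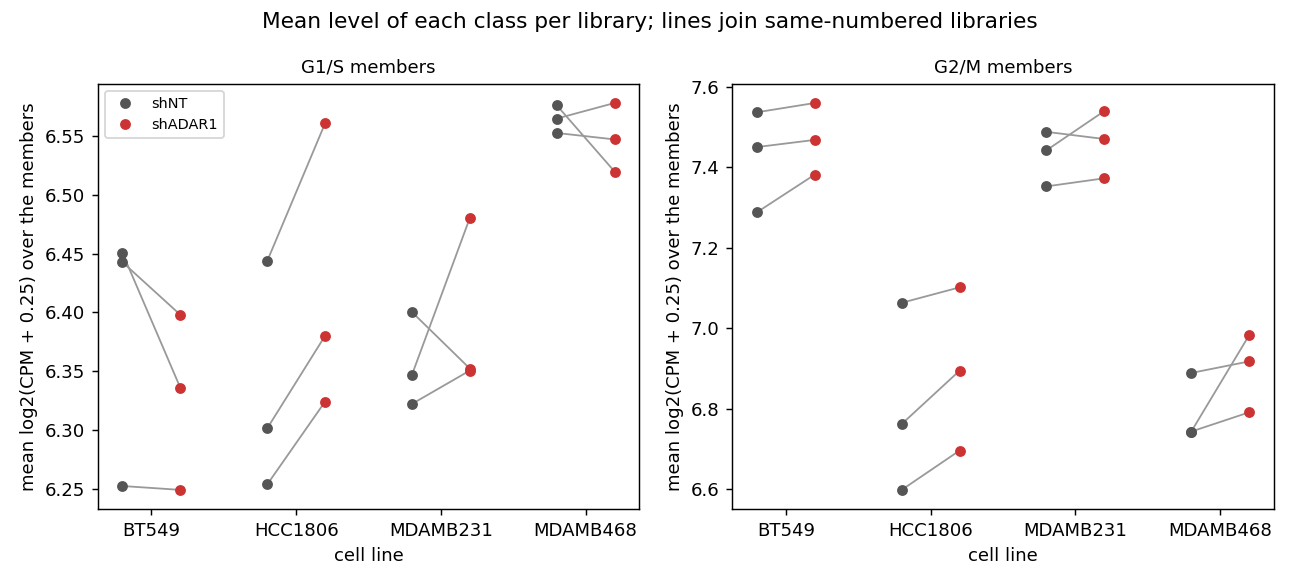
Mean of log2(CPM + 0.25) over the 21 G1/S members (left) and the 23 G2/M members (right) in each library, grey for shNT and red for shADAR1, with lines joining same-numbered libraries. The axes do not start at 0. The G2/M mean was higher in shADAR1 in 11 of the 12 pairs, by 0.018 to 0.239, and lower in 1 MDAMB231 pair by 0.018; the mean difference between arms (0.033 to 0.105 by line) was smaller than the range of the shNT libraries in each line (0.136 to 0.465).

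The remaining members that the study of proliferation usually turns to had estimates near 0. CCNB1 had log2 fold changes of -0.01, -0.08, 0.09 and 0.01 in BT549, HCC1806, MDAMB231 and MDAMB468 (SE 0.13 in each). From shNT to shADAR1, CCNB1 went from 329, 347 and 253 to 300.3, 339.6 and 280.2 CPM in BT549, from 154, 113 and 136 to 142, 113 and 128 in HCC1806, from 197, 174 and 202 to 218, 193 and 200 in MDAMB231 and from 131, 108 and 103 to 117, 106 and 122 in MDAMB468. The arms overlapped in all lines, and the sign of CCNB1 in 3 of the lines and of its mean depended on which library was left out. MCM2 had log2 fold changes of -0.11, 0.04, 0.05 and -0.04 (SE 0.10 in each). MCM2 went from 196, 178 and 147 to 167, 169 and 148 CPM in BT549, from 188, 175 and 176 to 203, 179.7 and 172 in HCC1806, from 114, 132 and 118 to 126, 132 and 119 in MDAMB231 and from 96.9, 89.9 and 84.4 to 80.0, 96.0 and 87.1 in MDAMB468.

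FOXM1 had log2 fold changes of 0.02, 0.09, -0.07 and 0.12 in the same order (SE 0.09 in each). Its levels went from 281, 276 and 248 to 286, 276 and 251 CPM in BT549, where RLE scaling and DESeq2 turned the sign, from 226, 175 and 199 to 225, 189 and 223 in HCC1806 and from 243, 284 and 276 to 268, 259 and 235 in MDAMB231. MYBL2 had 0.03, 0.15, 0.20 and -0.01, with 376, 364 and 326 to 386, 367 and 336 CPM in BT549, 181, 159.5 and 189 to 209, 179 and 199 in HCC1806 and 273, 279 and 262 to 254, 279.5 and 276 in MDAMB468. MKI67 had -0.03, 0.06, -0.16 and -0.01, with 1090.3, 1087 and 1129 to 1126, 1052 and 1054 CPM in BT549 and 766, 815 and 845 to 764, 754 and 886 in MDAMB468. CCNE1 had -0.14 in BT549 (27.7, 27.4 and 24.5 to 23.8, 26.7 and 21.6 CPM) and -0.02 in HCC1806 (93.7, 94.7 and 79.5 to 95.2, 93.8 and 75.5 CPM).

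Whether the effect of knockdown differed between lines was tested jointly. No member passed by edgeR's test (0.0234% of all genes), none had an unadjusted p under 0.05 (4.44% of all genes), and DESeq2 called 0. With the replicate block 2 of 44 passed, beside 4.69% of all genes: E2F8 (F = 10.7, adjusted p = 0.011) and E2F2 (F = 8.93, adjusted p = 0.020). E2F8 was lower in all 3 pairs of BT549 (21.3, 23.3 and 22.4 to 20.1, 21.4 and 19.3 CPM) and higher in all 3 of HCC1806 and of MDAMB468 (33.3, 27.9 and 28.8 to 33.9, 32.9 and 36.3 CPM). In MDAMB231 it went from 34.1, 31.8 and 37.5 to 35.9, 24.6 and 32.2 CPM. E2F2 was lower in all 3 pairs of MDAMB231 and higher in all 3 of HCC1806 (28.6, 23.3 and 29.4 to 31.4, 23.5 and 35.8 CPM), with BT549 at 29.9, 29.3 and 31.0 to 27.4, 24.7 and 31.7 CPM. CDT1 had the second smallest p without the block (unadjusted p = 0.099, edgeR's quasi-likelihood test, adjusted p = 1.00), with 122, 121 and 119 to 146, 135 and 132 CPM in HCC1806, whose arms did not overlap.

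Upstream regulators of the same pathway held calls in 2 lines without the block. Of the 7 CDK inhibitor genes, CDKN2C (p18) fell in BT549, from 195, 196 and 145 CPM to 107, 108 and 110.2 CPM (log2 fold change -0.72, adjusted p = 0.0037), and CDKN2D (p19) rose in MDAMB231, from 25.7, 22.2 and 25.3 CPM to 53.6, 32.3 and 48.0 CPM (0.87, adjusted p = 0.00042; 0.88 and adjusted p = 0.080 in a fit of the MDAMB231 libraries alone, where the call was lost). Of the 6 D-type cyclins and G1 kinases, CCND3 rose in MDAMB231 from 135, 127 and 143 CPM to 272, 195 and 226 CPM (0.78, adjusted p = 0.00030) and CDK6 from 196, 164 and 178 CPM to 304, 285 and 309.5 CPM (0.74, adjusted p = 0.0054). None of these arms overlapped. Over the 4 lines CDKN2D (0.42), CCND3 (0.35) and CDK6 (0.43) rose and CDKN2C fell by 0.25 (adjusted p = 0.036), a call that was lost in 17 of the 24 fits that left out 1 library. The lines did not share that fall: CDKN2C was lower in 8 of 12 pairs but higher in 3 of 3 in MDAMB468. Its mean there went from 27.5 to 31.3 CPM, and its log2 fold change in HCC1806 was -0.02. With the replicate block CDK6 rose in every line (0.42, 0.28, 0.75 and 0.28), and CCND1 fell over the lines (-0.22, adjusted p = 9.3e-06), going from 101, 111 and 77.2 to 79.1, 73.5 and 58.6 CPM in BT549 and from 772, 802 and 758 to 641, 680.4 and 638 in MDAMB231. RB1 (log2 fold changes 0.05, 0.06, -0.19 and 0.00), CDKN2A (-0.13 in BT549 and 0.09 in MDAMB468) and CDKN1A (-0.10, 0.12, 0.04 and 0.18) did not pass. Under shADAR1 RB1 read 19.2, 22.2 and 20.7 CPM in BT549, 69.0, 59.1 and 61.8 in HCC1806, 80.4, 72.0 and 82.0 in MDAMB231 and 1.40, 1.17 and 1.08 in MDAMB468, overlapping the shNT values in each line. CDKN2A had 0 counts in the shADAR1 libraries of HCC1806 and MDAMB231 too. No gene of the pocket protein, MuvB or other E2F and DP lists passed in any line or in the mean without the block.

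Longer lists of cell cycle genes outside the 44 were counted in the same way. Of 25 further G1/S targets none passed in a line or over the lines, and with the block 6 did over the lines, 3 up and 3 down, where 13.2% of all genes passed (7.25% up and 5.96% down). Of 26 further G2/M genes none passed in a line and 2 rose over the lines, RACGAP1 (0.20, adjusted p = 0.016) and KIF18B (0.16, adjusted p = 0.028), beside 2.96% of all genes, with 7 over the lines with the block, 6 up and 1 down. Estimates above 0 were found for 24 of these 26 genes in HCC1806, 22 in MDAMB468, 18 in MDAMB231 and 14 in BT549, next to 20, 22, 13 and 16 of the 23 G2/M members. Both sets were read in the same libraries, so their signs are not separate results and the 1 count does not back the other. Under shADAR1 the lines kept wide differences in cyclin E1, CCNE1 running from 5.65 CPM in MDAMB231 to 95.2 CPM in HCC1806.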

How the data were processed

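STAR 2.5.1a and featureCounts 1.4.6-p5 are among the tools named, with no role or order, in the submitters' processing notes; the genome build and the strand setting are not given in the sources used here. Gene positions in the files equal those of GENCODE release 29 on GRCh38 for 31354 genes and 41 of the 44 members. Each deposited table holds raw counts per gene, with CPM (of the library's total) and RPKM values of the authors beside them, per the file headers; only the counts were tested. CPM in the text are recomputed from the counts after TMM scaling, and levels per kb divide them by the deposited gene length. Tests used edgeR 4.0.16 (quasi-likelihood, 8 group coefficients, TMM, filterByExpr; R 4.3.3) with Benjamini-Hochberg adjustment over 21352 genes and a threshold of 0.05. They were also run on simulated counts with changes planted in BT549, each larger than most member changes given here. That run does not speak to smaller changes. Means of log values used a pseudocount of 0.25, and the heat map 1. Floors (3 counts) cover counting error only, whereas standard errors come from the quasi-likelihood fit and include the spread between libraries.

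Replicate numbers were read as pairing the arms because titles in both arms carry the same numbers and all 12 same-numbered pairs deviated together (correlations 0.255 to 0.801 across the 11794 genes that reach 10 counts in all libraries). Depth partly went with the number: replicate 1 was the shallowest in both arms of HCC1806, MDAMB231 and MDAMB468. In MDAMB231 it held 10370645 (shNT) and 20922499 (shADAR1) reads. The part of depth in these correlations was not tested. Alternatives were DESeq2 1.42.0, scaling by upper quartile or RLE, a filter of 10 counts in all libraries, no filter, the replicate block, libraries of the compared groups only, removal of structural RNA and mitochondrial genes, a shorter promoter window and leaving out each library; leaving out pairs under the block was chosen after seeing the data. The members and lists were chosen with earlier results of these data known. For each comparison the text names up to 6 members per direction and class past the threshold, or the 3 with the smallest p where fewer than 3 passed, always CCNE1, E2F1, MYBL2, FOXM1, CCNB1, MKI67, MCM2, RB1, CDKN2A, CDKN1A and CCND1, and up to 3 examples of other lists.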

Additional observations from a re-analysis of the deposited data

Results flagged for a closer look

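For 2 of 44 members the effect of shADAR1 differed between the 4 lines in the joint edgeR test with the replicate block, E2F8 (adjusted p = 0.01079) and E2F2 (adjusted p = 0.0198). The same test called 4.69% of all genes, so the share of members called was no larger than that of all genes. E2F8 was lower in 3 of 3 pairs in BT549 and higher in 3 of 3 pairs in both HCC1806 and MDAMB468. E2F2 was lower in 3 of 3 pairs in MDAMB231 and higher in 3 of 3 pairs in HCC1806. Without the block neither passed (adjusted p = 1.00 for each). When 1 same-numbered pair was left out of the blocked fit, E2F8 passed in 12 of 12 fits and E2F2 in 10 of 12.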

How the results depend on the processing

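The replicate block moved every count of members called for knockdown, to 2 in BT549 (1 up, 1 down), 3 in HCC1806, 10 in MDAMB231 (6 up, 4 down), 2 in MDAMB468 (2 down), 13 for the mean over lines (11 up, 2 down) and 2 for the difference between lines; the cause was not tested. It changed no member call other than those the report names. With the libraries of BT549 alone 1 member passed there (CDC25A, -0.437, adjusted p = 0.02727), and CDKN2D lost its call in MDAMB231 with that line's libraries alone (0.8767, adjusted p = 0.07973). DESeq2 called 1 in MDAMB468 (CDC25A, -0.5291, adjusted p = 0.03608). The G1/S median in MDAMB468, -0.008254, became -0.02622 with upper-quartile scaling and -0.02374 with that line's libraries alone. Small estimates turned: FOXM1 in BT549 to -0.001359 (RLE), -0.002058 (without structural RNA and mitochondrial genes) and -0.001428 (DESeq2), CCNB1 in MDAMB468 to -0.00386 (upper-quartile) and -0.0009309 (own line), and the CCNB1 mean to -0.005923 (RLE), -0.0005527 (at least 10 counts) and -0.005907 (DESeq2). In the shorter promoter window 0 G1/S promoters held CHR, alone or with CCAAT. The counts of control differences stayed within 1.5 times of the values given under every alternative run.

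Leaving out 1 library or, with the block, 1 pair gave counts of 0 to 1 in BT549, HCC1806 and MDAMB468, 0 to 9 in MDAMB231, 2 to 14 for the mean and 0 to 3 for the difference between lines. Medians ran from 0.00606 to 0.09104 (G1/S, MDAMB231), -0.02357 to 0.1266 (G2/M, MDAMB231) and -0.01581 to 0.0252 (G1/S, MDAMB468). Log2 fold changes that changed sign ran, for CCNB1, from -0.1393 to 0.07741 in BT549, -0.1858 to 0.03539 in HCC1806, -0.09799 to 0.1273 in MDAMB468 and -0.02644 to 0.03419 for the mean. For CCNE1 in HCC1806 the range was -0.0946 to 0.1044, for FOXM1 -0.03599 to 0.06935 in BT549 and -0.1813 to 0.000719 in MDAMB231, and for MCM2 -0.03051 to 0.1126 in HCC1806, -0.1117 to 0.06946 in MDAMB468 and -0.03902 to 0.0159 for the mean. For MKI67 it was -0.03152 to 0.2291 in HCC1806, -0.09539 to 0.03621 in MDAMB468 and -0.05948 to 0.005389 for the mean, and for MYBL2 -0.02708 to 0.08484 in BT549 and -0.05687 to 0.03921 in MDAMB468.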
